A study of Saccharomyces cerevisiae with 6 samples.

Results

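The RNAs described here are the 5950 of 6962 RNAs in a pool of yeast mRNA leaders that were chosen by their abundance in the starting pool, an input of at least 1000 FPKM. FPKM scales fragments to RNA length and to the mapped reads of a library, so each value is a share of its library. Each RNA carries the leader of 1 gene, the stretch upstream of the start codon, and is named here by its gene and its leader length in nucleotides (nt). The RNAs came from 3785 genes of the 4134 in the pool, of which 2158 contributed 1 RNA and 1627 contributed 2 or more, up to 6. The shortest leader had 13 nt and the median leader 45 nt. The capped RNAs were made in vitro with T7 RNA polymerase, added to a cell-free translation extract of Saccharomyces cerevisiae and sorted by sedimentation in sucrose. The labels do not name the strain behind the extract. The sequenced groups were the input pool (1 library), the fraction called untranslated in the labels (2 libraries) and the 80S fraction (3 libraries). The labels record a biotin pulldown for both gradient fractions and only phenol and chloroform extraction for the input, so passage through the extract and gradient and the pulldown cannot be told apart when a fraction is set against the input.

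In eukaryotes the small ribosomal subunit is loaded near the capped 5′ end of an mRNA by initiation factors and moves along the leader until it meets a start codon, where the large subunit joins to form the 80S ribosome. In yeast, leaders are short and rich in A, and features near the cap, upstream start codons and base pairing are known to alter how readily a ribosome is recruited. An RNA that forms an 80S complex sediments deeper in a gradient than an RNA without one. The comparison of the untranslated fraction with the input asks which RNAs make up a larger or smaller share of the RNA that the gradient leaves outside the ribosomal peak. No RNA in the pool is a recognised marker of that fraction, so its label could not be checked against one.

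The leaders at the extremes of the comparison differ in how they begin. The first leader bases of the 6 RNAs that gained most and the 6 that lost most are shown. Base content at the start of the leader is the leader feature that varied most with the ratio. Sequences are from the RefSeq genome R64, written 5′ to 3′ in the sense of the RNA with DNA letters, up to 30 bases from the leader's first base, with the first 12 bases in capitals. The stretches shown of the 6 gained leaders lie at chrXII:973177-973206 (minus strand, ATG17), chrXIV:108448-108466 (plus strand, HCH1), chrII:578107-578136 (minus, NPL4), chrIX:169715-169744 (minus, SLM1), chrXII:270771-270800 (minus, PET309) and chrX:246453-246482 (plus, MRPL49). Those of the 6 depleted leaders lie at chrVIII:225170-225199 (minus, PAN5), chrVII:641995-642009 (plus, TWF1), chrXVI:38154-38168 (plus, ACM1), chrIV:1168692-1168721 (minus, SVF1), chrXI:164386-164408 (minus, GPM1) and chrX:136777-136806 (minus, SNA3). Each leader ends just before the annotated start codon, so the stretches shown of leaders over 30 nt stop short of it.
ATG17 36 nt: GATACTGCGAGGatattatcaacgtattta
HCH1 19 nt: AACACATTTACGataaaat
NPL4 50 nt: GAAGAAAAATTTccctatactactgatatc
SLM1 103 nt: TATTAGAGTGTTcttatatctgcatttggt
PET309 90 nt: ACCCAGGAAAGAggccgcaatagtgtacaa
MRPL49 37 nt: GTGCCGAGACAAtcttaagtgtgttgctct
PAN5 30 nt: AATATACGTATAcgataaagtctgtacaat
TWF1 15 nt: ATCTCAACACATcac
ACM1 15 nt: AAGAGACACTGAaag
SVF1 62 nt: AGTCATTTATTGcatcgaatcaagaaaaaa
GPM1 23 nt: AAACAAACACACatattacaata
SNA3 33 nt: AGCAGAAAGCAAacaaccaaatataattta
Among the 12 RNAs that gained most, the first 12 bases held 1 to 7 A with a median of 3.5, and among the 12 that lost most they held 3 to 8 A with a median of 6. The ranges overlap, and these RNAs were selected on their ratios.

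Most of the chosen RNAs were less abundant in the untranslated fraction than in the input. The log2 ratio, formed as log2 of (untranslated FPKM + 1) over (input FPKM + 1), had a median of -0.48 in untranslated replicate 1 and -0.54 in replicate 2. In replicate 1 its interquartile range was -1.23 to 0.24, and in replicate 2 it was -1.44 to 0.30. The ratio was below 0 in both libraries for 3661 RNAs and above 0 in both for 1586. RNAs at least 2-fold above the input in both libraries are called gained, and those at least 2-fold below it in both are called depleted. There were 376 gained RNAs from 350 genes (6.32%) and 1620 depleted RNAs from 1363 genes (27.2%). Over the whole pool, 10.8% of RNAs were gained and 24.1% depleted. No RNA was gained in 1 library and depleted in the other. Nothing is read from the distance between the chosen RNAs and the whole pool, because the input that chose the RNAs is the denominator of the ratio.

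The asymmetry reached the extremes. At 4-fold in both libraries, 37 RNAs were gained and 436 depleted, and at 8-fold 3 were gained and 68 depleted. The span was -4.82 to 3.41 in replicate 1 and -6.77 to 3.60 in replicate 2. FPKM are shares of a library, and the split depends on how libraries are scaled. Rescaling the libraries by median ratios over all RNAs raised the median log2 ratio by 0.39 and gave 725 gained and 1067 depleted RNAs. Gained RNAs then formed 40.5% of the gained and depleted together, against 18.8% before rescaling.

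**Figure D1:**
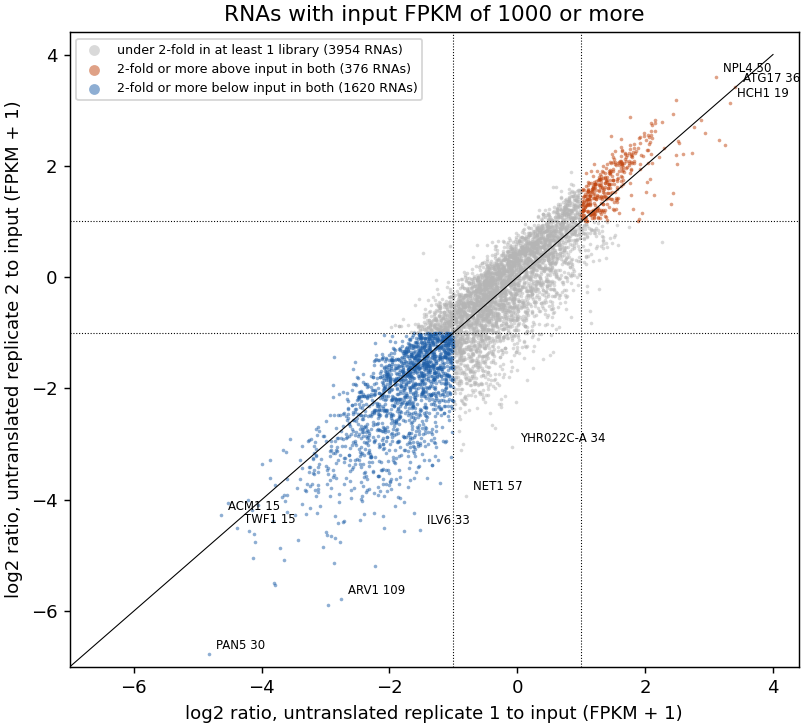
Each point is 1 of the 5950 RNAs, placed by its log2 ratio of FPKM + 1 to the input in untranslated replicate 1 (horizontal) and replicate 2 (vertical); dotted lines mark 2-fold and the solid line marks equal ratios. The 376 gained RNAs lie at the upper right and the 1620 depleted RNAs at the lower left, and the cloud spreads below the solid line among depleted RNAs.

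The ratio varied with the input level itself. For RNAs with an input of 1000 to 2000 FPKM the median ratio was -0.21 in replicate 1 and -0.08 in replicate 2, with 127 of 1265 gained (210 depleted). For RNAs above 12000 FPKM it was -0.65 and -1.18, with 12 of 286 gained (105 depleted). Below the threshold, RNAs under 500 FPKM had medians of 1.39 and 1.67, and 57.8% of them were gained. The input is the denominator of every ratio, and the part of low input values in the ratios was not tested. The input had 1 library, so its own error is unknown. The chosen RNAs held 98.1% of all input FPKM, 96.0% of that in untranslated replicate 1 and 95.3% in replicate 2.

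The RNAs nearest the threshold differed widely among themselves. HCH1 (19 nt), just inside at 1001 FPKM, was among the RNAs that gained most. Also just inside lay AFR1 (16 nt), a regulator of mating projections, with 1001 FPKM in the input and 1607 and 2672 in the untranslated libraries. The other one inside was RRP4 (14 nt), a subunit of the RNA exosome, with 1001 FPKM in the input and 1554 and 1510 in the untranslated libraries. Just outside lay VPH2 (54 nt), an assembly factor of the vacuolar ATPase, with 999 FPKM in the input and 578 and 768 in the untranslated libraries. BBP1 (16 nt), a spindle pole body protein, had 997, 576 and 615 FPKM in that order, and NAR1 (47 nt), a factor of iron-sulfur protein assembly, had 997, 1160 and 1011. At the other end, the most abundant RNA of the input was YJR112W-A (20 nt) at 53274 FPKM, with 46359 in untranslated replicate 1 and 12109 in replicate 2. ASK10 (49 nt), a regulator of a glycerol channel, had 35653 FPKM in the input and 38739 and 23323 in the untranslated libraries. RMI1 (38 nt), a partner of the Sgs1 helicase and Top3, had 33254 FPKM in the input and 14794 and 15070 in the untranslated libraries. Of these 3, RMI1 alone stood more than 2-fold below the input in both.

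The 12 RNAs that gained most rose from inputs between 1001 and 6461 FPKM. ATG17 (YLR423C, 36 nt), the scaffold protein that gathers autophagy initiation factors, had 1249 FPKM in the input and 13299 and 13277 in untranslated replicates 1 and 2, or 10.6-fold more in each. In the 80S fraction it had 13321, 17934 and 12041 FPKM in replicates 1, 2 and 3. ATG17 was therefore about as abundant in both gradient fractions, and low only in the input. HCH1 (YNL281W, 19 nt), an activator of the chaperone Hsp90, had 1001 FPKM in the input, 10053 and 8794 in the untranslated fraction, and 3811, 3885 and 3345 in the 80S fraction. Both HCH1 fractions stood above the input, the untranslated one further.

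The third strongest gain belonged to NPL4 (YBR170C, 50 nt), a cofactor that brings ubiquitinated proteins to the segregase Cdc48. It had 2562 FPKM in the input, 22067 and 30994 in the untranslated libraries, 8.61-fold and 12.1-fold above the input, and 4166, 4346 and 3937 in the 80S libraries. SLM1 (YIL105C, 103 nt), an effector of the TORC2 kinase at the plasma membrane, had 1831 FPKM in the input, 13465 and 13019 in the untranslated libraries, and 2294 to 2396 in the 80S libraries. In both genes the 80S values lay nearer to the input than to the untranslated fraction. PET309 (YLR067C, 90 nt), which activates translation of the mitochondrial COX1 mRNA, had 2724 FPKM in the input, 18485 and 17682 in the untranslated libraries, and only 1330, 1387 and 1583 in the 80S libraries. PET309 was thus above the input in one fraction and below it in the other.

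The remaining 7 RNAs of the set had ratios from 2.37 to 3.24. MRPL49 (37 nt), a protein of the large mitochondrial ribosomal subunit, had 1653 FPKM in the input and 12714 and 9958 in the untranslated libraries. RRP3 (43 nt), an RNA helicase of 18S rRNA maturation, was the most abundant of the set, with 6461 FPKM in the input, 36191 and 58524 in the untranslated libraries and 10995 to 17194 in the 80S libraries. VMS1 (26 nt), which releases stalled chains from the large subunit, had 2904 FPKM in the input and 16539 and 15785 in the untranslated libraries. NSA1 (44 nt), an assembly factor of the large subunit, had ratios of 2.43 and 2.93. EHD3 (73 nt), a mitochondrial hydrolase of valine breakdown, had 3.16 and 2.47, HEL1 (107 nt), a RING ubiquitin ligase, 2.52 and 2.41, and YPD1 (114 nt), the phosphorelay protein of osmosensing, 3.24 and 2.37. In 9 of the 12 RNAs all 80S libraries also stood above the input. In 11 of the 12 all 80S libraries stood below both untranslated libraries, the exception being ATG17. The RNAs were chosen for a high ratio, which by itself favours 80S values between the input and the untranslated fraction.

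The 12 RNAs that lost most fell from inputs between 2651 and 21829 FPKM to between 111 and 769. PAN5 (YHR063C, 30 nt), a reductase of pantothenate synthesis, had 21829 FPKM in the input and 769 and 199 in untranslated replicates 1 and 2, a 28.3-fold and a 109-fold decrease. Its 80S libraries held 9240, 6555 and 10367 FPKM. PAN5 gave the lowest ratio of all RNAs in both libraries. TWF1 (YGR080W, 15 nt), the actin monomer-binding protein twinfilin, had 4226 FPKM in the input, 200 and 185 in the untranslated libraries, and 433, 219 and 325 in the 80S libraries. The short TWF1 leader was therefore scarce in both gradient fractions.

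ACM1 (YPL267W, 15 nt), an inhibitor of the anaphase-promoting complex, had 8594 FPKM in the input, 344 and 443 in the untranslated libraries, and 2182, 1001 and 1264 in the 80S libraries. SVF1 (YDR346C, 62 nt), a protein needed for survival under oxidative stress, had 2651 FPKM in the input, 143 and 111 in the untranslated libraries, and 1819, 1134 and 1225 in the 80S libraries. GPM1 (YKL152C, 23 nt), the phosphoglycerate mutase of glycolysis, had 6774 FPKM in the input, 379 and 371 in the untranslated libraries, and 4631, 2673 and 3794 in the 80S libraries. For SVF1 and GPM1 the 80S libraries kept most or part of the input level while the untranslated libraries lay at least 17.8-fold below it. SNA3 (33 nt), an adaptor for sorting to the vacuole, had 5968 FPKM in the input, 340 and 180 in the untranslated libraries, and 670 to 877 in the 80S libraries.

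The remaining 6 of that set had ratios between -3.82 and -4.75. They were PMT2 (100 nt), a protein O-mannosyltransferase, NHP6B (26 nt), a chromatin protein of the HMG family, SMF1 (40 nt), a manganese transporter, TUB3 (30 nt), an alpha-tubulin, YGL081W (100 nt) and VPS68 (20 nt), a vacuolar membrane protein. In all 12 RNAs of the set every 80S library stood below the input and above both untranslated libraries. These RNAs were chosen for a low ratio, which by itself favours 80S values between the untranslated fraction and the input. Their leaders spanned 15 to 100 nt (median 30 nt), against 19 to 114 nt (median 47 nt) in the 12 that gained most. None of the 24 leaders held an upstream ATG.

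**Figure D2:**
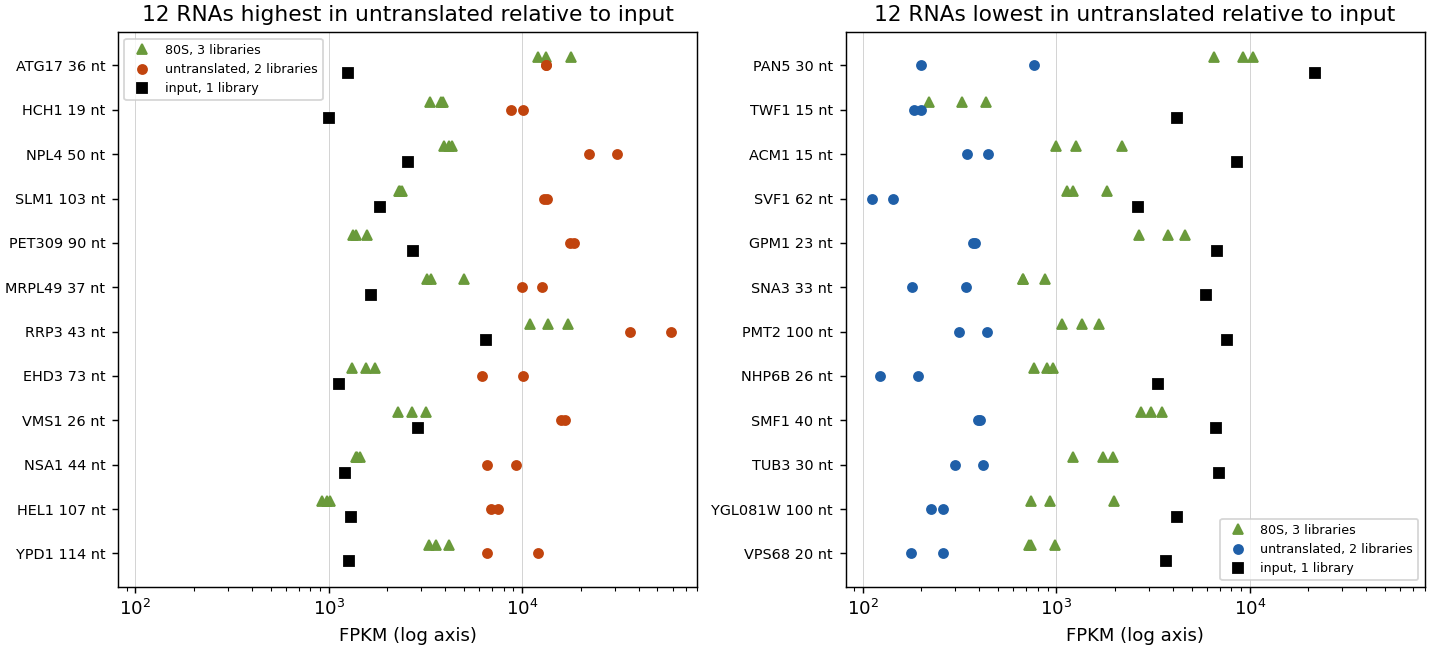
FPKM on a log axis of the 12 RNAs highest (left) and the 12 lowest (right) in the untranslated fraction relative to the input, labelled with gene and leader length. Circles are the 2 untranslated libraries, triangles the 3 80S libraries and squares the input. The 80S libraries lie below both untranslated libraries in 11 of the 12 gained RNAs and above both in all 12 depleted RNAs. The choice of these RNAs by their ratio favours both orders.

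Both gradient fractions moved the same way by at least 2-fold in every library for 40 of the 376 gained RNAs (10.6%) and 556 of the 1620 depleted RNAs (34.3%). The share of all chosen RNAs with such 80S values was not computed, so no excess is read from these counts. Among gained RNAs, the 4 with the largest ratios that did so were ATG17, HCH1, YPD1 and RHO4 (51 nt), a small GTPase of polarised growth. RHO4 had 1155 FPKM in the input, 7645 and 5437 in the untranslated libraries, and 11567, 9550 and 8283 in the 80S libraries. Among depleted RNAs the 4 with the smallest ratios were PAN5, TWF1, ACM1 and SNA3. All fractions are set against the same input library, so an error of that library would move both fractions together, which was not tested.

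The gained and depleted classes differed in 80S abundance less than in untranslated abundance. The median gained RNA had 2752 FPKM in the input, 8181 and 9313 in the untranslated libraries, and 2143, 2408 and 2093 in the 80S libraries. The median depleted RNA had 4303 FPKM in the input, 1229 and 1001 in the untranslated libraries, and 2596, 2154 and 2415 in the 80S libraries. The 80S medians of the classes thus lay within a narrow range, while the untranslated medians lay far apart, which the choice of the classes fixed in direction.

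Both untranslated libraries gave similar values for most RNAs. They were within 2-fold of each other for 5466 RNAs (91.9%), with a median absolute difference of 0.35 on the log2 scale. Across the 5950 RNAs, which share the libraries and in many cases a gene, log2 FPKM correlated with a Pearson's r of 0.917. Of the 484 RNAs more than 2-fold apart, replicate 1 was the higher in 462 and replicate 2 in 22. Replicate 1 exceeded replicate 2 in 66.0% of depleted RNAs and in 21.3% of gained RNAs, so replicate 2 had the wider spread of ratios, with an SD of 1.31 against 1.08. Taken alone, replicate 2 gave 596 gained RNAs and replicate 1 gave 449, against 376 in both. Taken alone, replicate 2 gave 2165 depleted RNAs and replicate 1 gave 1895, against 1620 in both.

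The RNAs on which the libraries differed most were low in replicate 2. NET1 (57 nt), a nucleolar anchor of the mitotic exit phosphatase Cdc14, had 3859 FPKM in the input, 2216 in replicate 1 and 253 in replicate 2. ARV1 (109 nt), a protein of sterol transport, had 7733 FPKM in the input, 1139 in replicate 1 and 139 in replicate 2. ILV6 (33 nt), the regulatory subunit of acetolactate synthase, had 8886 FPKM in the input, 3076 in replicate 1 and 382 in replicate 2. For NET1 and ILV6 the 80S libraries, at 170 to 329 and 785 to 1044 FPKM, were also far below the input, whereas ARV1 kept 5464 to 7405. YHR022C-A (34 nt) had 4535 FPKM in the input, 4301 in replicate 1 and 544 in replicate 2.

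With limma, fitted to log2(FPKM + 1) of all 6962 RNAs with the 6 libraries in 3 groups and a Benjamini-Hochberg adjusted p under 0.05, 760 of the chosen RNAs were higher (12.8%) and 2309 lower (38.8%) in the untranslated fraction than in the input. Over all RNAs the shares were 17.4% and 34.4%. These calls are a description, since the input chose the RNAs, and the fit gives the unreplicated input the spread of the replicated fractions. After rescaling by median ratios the counts were 1244 higher and 1593 lower. Setting 80S against untranslated libraries leaves the input out. There, 2353 chosen RNAs were higher in the 80S fraction (39.5%) and 1898 lower (31.9%), against 38.6% and 31.8% over all RNAs. The chosen RNAs were 85.5% of all RNAs. Such an overlap by itself brings the shares close, so nothing is read from their closeness. Nothing in the labels says that replicates came from separate extracts, so limma's p-values reflect the spread among these libraries alone, which may be technical.

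Among RNAs picked by input level alone, the 80S and untranslated fractions can be tested against each other. The log2 difference of 80S from untranslated was -1.40 (SE 0.26) for AFR1, with a limma adjusted p of 1.601e-03, and all 3 80S libraries, at 738 to 874 FPKM, lay below both untranslated libraries. For YJR112W-A it was -1.49 (SE 0.47, limma adjusted p = 1.951e-02), and its 80S libraries held 7736 to 9401 FPKM. For NAR1 it was -2.34 (SE 0.23, limma adjusted p = 5.447e-05). VPH2 went the other way at 0.81 (SE 0.25, limma adjusted p = 1.952e-02). RRP4 (0.00, SE 0.22), RMI1 (-0.11, SE 0.15), ASK10 (-0.07, SE 0.25) and BBP1 (0.41, SE 0.25) did not pass. Their limma adjusted p were 9.888e-01, 5.326e-01, 7.987e-01 and 1.653e-01 in that order.

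A content at the start of the leader accompanied the ratio. Sequence was available for 5857 of the chosen RNAs (98.4%). RNAs with 0 to 2 A among the first 12 leader bases (463 RNAs) had median ratios of -0.07 in replicate 1 and -0.17 in replicate 2, and 11.2% were gained and 18.4% depleted. With 3 or 4 A (1804 RNAs) the medians were -0.33 and -0.37, with 5 A (1178 RNAs) -0.46 and -0.54, and with 6 or 7 A (1796 RNAs) -0.63 and -0.68. With 8 to 12 A (616 RNAs) they were -0.90 and -0.94, and 1.46% were gained and 39.3% depleted. The medians fell at each step in both libraries. The same comparison for the last 12 bases before the start codon gave medians between -0.41 and -0.51 in replicate 1 with no such order.

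The 80S fraction ran in the opposite direction over the same bins. Its median ratio to the input in 80S replicate 1 was -0.74 with 0 to 2 A and -0.12 with 8 to 12 A. The median log2 difference of 80S from untranslated, which does not use the input, was -0.64, -0.13, 0.22, 0.48 and 0.81 from the fewest to the most A. The median input also rose over the bins, from 2986 to 4030 FPKM. Among RNAs with an input of 1000 to 2000 FPKM the median ratio in replicate 1 fell from 0.19 with 0 to 2 A to -0.61 with 8 to 12 A, and among those at 3000 to 5000 FPKM from -0.25 to -1.29. Above 8000 FPKM it fell from -0.06 to -0.96. The direction was therefore present within each of these input ranges. It was also present within leader lengths: for leaders of 81 nt or more the medians in replicate 1 were -0.10 with up to 4 A and -0.52 with 6 or more, and for leaders of 13 to 20 nt -0.40 and -0.72.

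The class means show where in the leader the difference lies. Over bases 1 to 12, A made up 36.8% of gained leaders, 45.9% of depleted leaders and 41.7% of the others. Over bases 13 to 24 the A shares were 35.2%, 37.9% and 36.3%. In bases 1 to 12, C made up 20.5% of gained and 14.7% of depleted leaders, with an SD of A content between leaders of 14.2 and 15.7 percentage points in the gained and depleted classes. The spread between leaders of 1 class was therefore larger than the difference between classes. Across the 5857 RNAs, which share libraries and in many cases a gene, Spearman's rho of A content in the first 12 bases with the ratio was -0.19 in replicate 1 and -0.14 in replicate 2.

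From 21 nt upward the median ratio rose with leader length, while the shortest leaders did not follow that order. Leaders of 13 to 20 nt (621 RNAs) had medians of -0.50 and -0.62, close to those of 41 to 60 nt (1494 RNAs) at -0.53 and -0.60. Leaders of 21 to 40 nt (1960 RNAs) had medians of -0.57 and -0.68, with 4.74% gained and 30.2% depleted. Leaders of 81 nt or more (889 RNAs) had medians of -0.26 and -0.22, with 93 gained and 162 depleted. The 80S ratio to the input was higher for long leaders as well, so that the 80S difference from untranslated did not order with length (Spearman's rho -0.03 across the 5857 RNAs). Leaders with a run of 5 or more T (626 RNAs) had medians of -0.24 and -0.21 against -0.51 and -0.57 without one, and 10.7% against 5.73% were gained. Runs of T were not compared within leader lengths, so the part of length in this difference was not tested.

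Leaders were also divided by upstream start codons, start codon context and folding, again not within leader lengths. The 831 leaders with an upstream ATG had medians of -0.41 and -0.49, and the 5026 without one -0.49 and -0.55. Gained RNAs were 7.94% of the former and 5.99% of the latter. Leaders with A at position -3 from the start codon, the base favoured in yeast, had medians of -0.50 and -0.55, those with C -0.44 and -0.48, those with G -0.44 and -0.46, and those with T -0.57 and -0.70. RNAs in the fifth of leaders with the most stable predicted folding per nt had medians of -0.35 and -0.42, and the 2339 RNAs with the least stable folding (39.9% of those with sequence, since many leaders tie at 0) -0.58 and -0.69. The C content of the whole leader, which ordered the 80S ratios strongly (Spearman's rho -0.41, -0.39 and -0.41 in the 80S libraries), had rho of 0.11 and 0.08 in the untranslated libraries across the same 5857 RNAs.

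**Figure D3:**
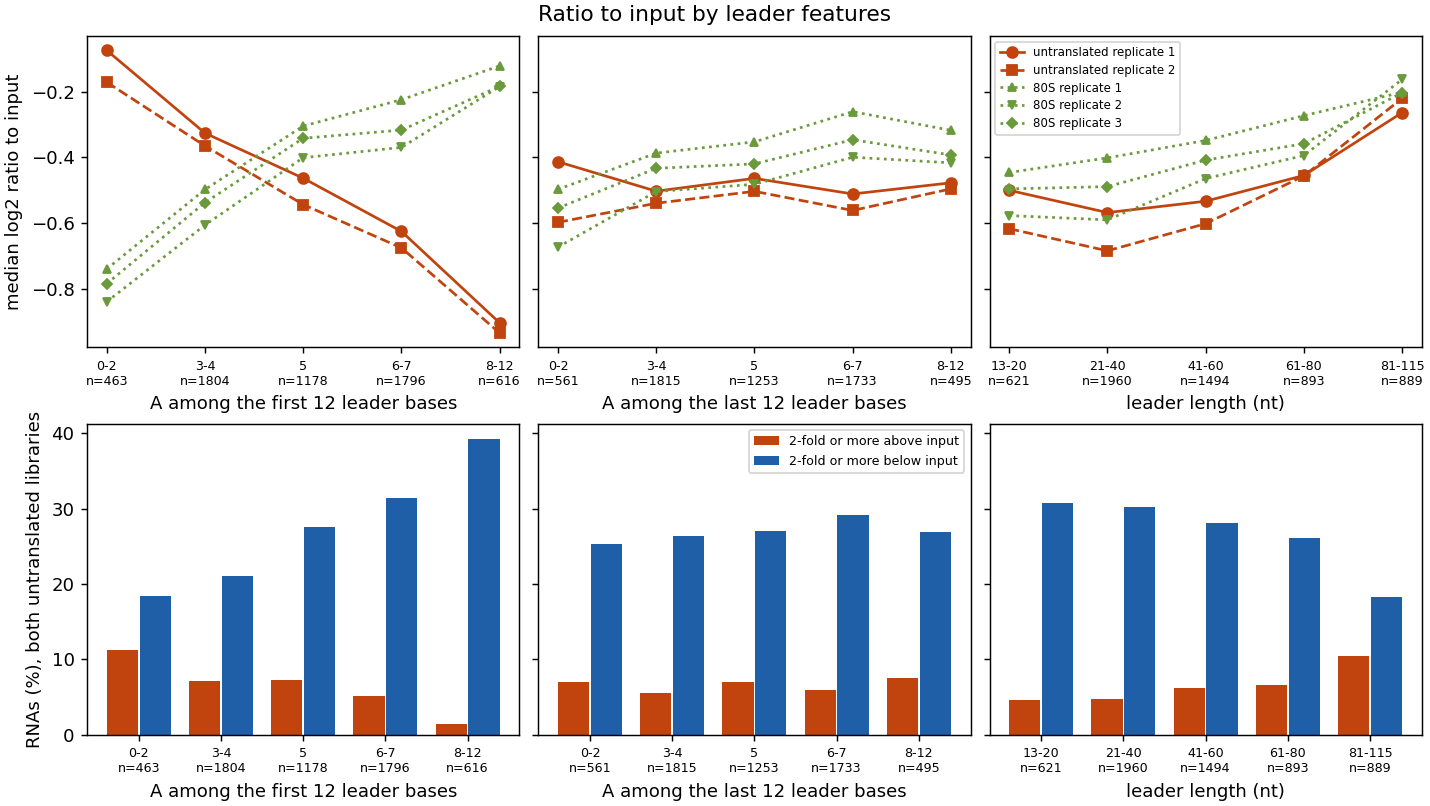
Upper panels give the median log2 ratio to the input in each untranslated and 80S library by A count in the first 12 leader bases, A count in the last 12 and leader length; lower panels give the percentage of RNAs gained or depleted in both untranslated libraries. From 0 to 2 to 8 to 12 A in the first 12 bases the untranslated medians fall from -0.07 and -0.17 to -0.90 and -0.94 while the 80S medians rise; leaders under 24 nt share bases between the first and last 12.

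RNAs of 1 gene with different leaders often went apart. In the 1627 genes with several chosen RNAs, the longest and the shortest leader differed by at least 2-fold in the same direction in both untranslated libraries in 609 (37.4%). In 337 of these the longer leader lay higher and in 272 the shorter. At 4-fold the counts were 104 and 67. For pairs more than 40 nt apart the longer leader was higher in 100 and the shorter in 58 of 401 genes, and for pairs up to 20 nt apart in 101 and 109 of 601 genes. In 45 genes 1 RNA was gained and another depleted. All of a gene's chosen RNAs were depleted in 146 genes and gained in 11. Leaders of 1 gene share their 3′ part, and the labels do not say how reads common to both were counted. The part of such reads in these differences was not tested.

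The pairs followed the A content of their first 12 bases. Where the long leader had at least 3 A more than the short one (239 genes), the median difference, long minus short, was -0.24 in replicate 1 and -0.20 in replicate 2. There the long leader was higher by 2-fold in 27 genes and the short in 57. Where the long leader had at least 3 A fewer (278 genes), the median difference was 0.47 and 0.42, with 83 genes higher for the long leader and 35 for the short. With equal A content (239 genes) the medians were 0.10 and 0.18.

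The largest pair difference was in TWF1, whose 15 nt leader was among the most depleted RNAs. The 42 nt leader of TWF1 had 2847 FPKM in the input and 5399 and 7409 in the untranslated libraries, so its log2 ratio exceeded that of the short leader by 5.32 and 5.89. HCH1 ran in the other direction. Its 80 nt leader had 5605 FPKM in the input and 1561 and 2254 in the untranslated libraries, and its log2 ratio minus that of the 19 nt leader was -5.17 and -4.45. ELC1, the yeast elongin C, had a gained leader of 62 nt (1245 FPKM in the input, 6008 and 8559 in the untranslated libraries) and a depleted leader of 22 nt (13121, then 3852 and 2839). CLU1, needed for the distribution of mitochondria, had a gained leader of 96 nt (3313 FPKM in the input, 14717 and 23364 in the untranslated libraries) and a depleted leader of 50 nt (12305, then 4037 and 4906). In all 4 genes the more abundant leader of the pair in the input was the one with the lower ratio. The input is the denominator of the ratio by which the pairs were chosen, so the choice itself favours that order.

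Differences as large appeared between leaders that differ by at most 30 nt. The bases that only the longer leader holds are shown for 5 genes, because they are the stretch by which a pair on opposite sides of the input differs. They are the first bases of the longer leader on R64, in TWF1 (chrVII, plus strand, leader 641968 to 642009), CCT6 (chrIV, plus, 836373 to 836420), HSP30 (chrIII, minus, 157108 to 157220), RAD2 (chrVII, minus, 1010767 to 1010806) and HSP60 (chrXII, minus, 665003 to 665048). No base is capitalised.
TWF1 42 nt over 15 nt: aggcaattgaataagaaggaactctgt
CCT6 48 nt over 22 nt: gtggaagcagtgagaagcagaagatt
HSP30 113 nt over 100 nt: aatacaacacaac
RAD2 40 nt over 28 nt: atgaagaaaagc
HSP60 46 nt over 34 nt: aagaaaattccc
CCT6, a subunit of the cytosolic chaperonin, had 1337 FPKM in the input and 1605 and 1489 in the untranslated libraries with 48 nt, and 9878, 753 and 338 with 22 nt. HSP60, the mitochondrial chaperonin, had 2110, 7124 and 10375 FPKM in that order with 46 nt, and 7395, 2240 and 1669 with 34 nt. The HSP60 leaders hardly differed in their 80S ratio, by 0.00, 0.06 and 0.02 in the 80S libraries, while their untranslated ratios differed by 3.48 and 4.44. HSP30, a regulator of the plasma membrane proton pump, had a ratio of 1.32 and 1.90 with 113 nt and of -2.42 and -1.74 with 100 nt. RAD2, the nuclease of nucleotide excision repair, was the pair in which added bases went with a lower ratio, -3.13 and -4.24 with 40 nt against 0.49 and 0.63 with 28 nt. The RAD2 stretch starts with an ATG at the first base of the leader.

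**Figure D4:**
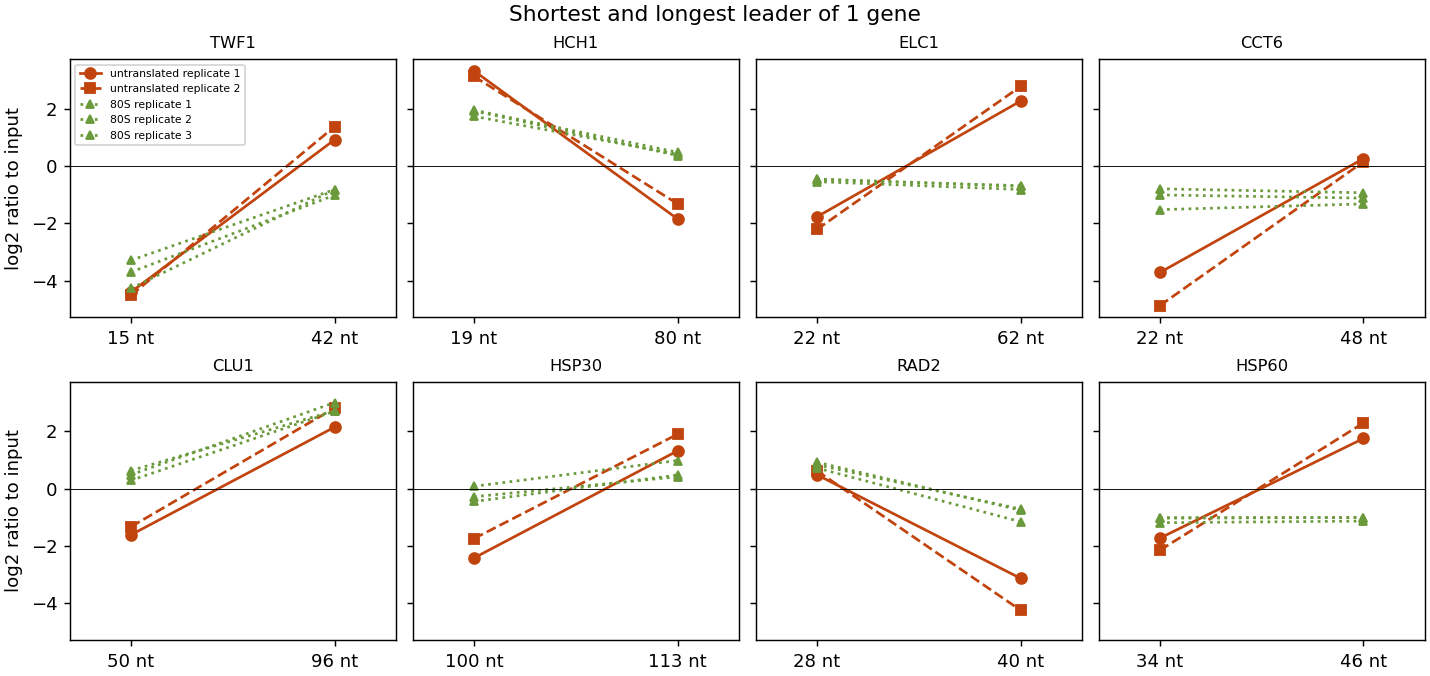
Log2 ratio to the input of the shortest and longest leader of 8 genes, with untranslated libraries as filled circles and squares and 80S libraries as triangles. The untranslated lines cross 0 in all 8 genes, and the 80S lines of ELC1, CCT6 and HSP60 are nearly flat.

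Grouped by function, genes of energy metabolism were among the lists with lower medians than the chosen RNAs as a whole. The lists hold the chosen RNAs of 22 functional groups, beside medians of -0.48 and -0.54 over all chosen RNAs, with 6.32% gained and 27.2% depleted. None of 76 RNAs of the respiratory chain and ATP synthase was gained and 29 were depleted (38.2%), with medians of -0.80 and -0.89. The highest were ATP25 (59 nt), with ratios of 1.398 and 0.998, and COX13 (20 nt), with 0.80 and 1.32. Each fell short of 2-fold in 1 library only, ATP25 narrowly. SDH3 (27 nt), a membrane subunit of succinate dehydrogenase, had 7159 FPKM in the input and 518 and 154 in the untranslated libraries, and COX16 (47 nt), an assembly factor of cytochrome oxidase, had 5136, 412 and 317. Of 24 RNAs of glycolysis and fermentation, 2 were gained and 10 depleted, with medians of -0.89 and -0.74. GPM1 was the lowest, followed by PYK2 (98 nt), a pyruvate kinase, with 15407 FPKM in the input and 1059 and 1572 in the untranslated libraries. The gained pair were PGI1 (42 nt), glucose-6-phosphate isomerase, with 1429 FPKM in the input and 3743 and 5534 in the untranslated libraries, and HXK2 (29 nt), a hexokinase, with 2420, 6435 and 6895. The tricarboxylic acid cycle had 1 gained and 6 depleted of 16 RNAs, with medians of -0.84 and -0.71. Outside energy metabolism, none of 23 RNAs of the vacuolar ATPase was gained and 9 were depleted, with medians of -0.72 and -0.72. The highest of them, VMA1 (98 nt), had ratios of 0.90 and 1.39.

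Histones had the lowest medians, -1.06 and -1.09, from 10 RNAs of which 4 were depleted and none gained. The list was not uniformly low. Its highest, HHF1 (36 nt), had 1994 FPKM in the input and 2457 and 3178 in the untranslated libraries. CSE4 (66 nt) came next, with ratios of -0.51 and -0.20. HHT2 (16 nt), a histone H3 gene, had 3119 FPKM in the input and 328 and 230 in the untranslated libraries, and HTZ1 (98 nt), the variant H2A.Z, had 6436, 742 and 991. The other end belonged to the nuclear pore, with medians of -0.01 and 0.06 from 30 RNAs, 3 gained and 8 depleted. SEH1 (21 nt), of the Y-shaped pore subcomplex, had 5865 FPKM in the input and 23122 and 35413 in the untranslated libraries. NUP170 (53 nt), of the inner ring, had 7913, 1482 and 587. The nuclear pore list thus held RNAs at both ends, and its share depleted, 26.7%, was close to that of all chosen RNAs.

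Lists of the translation machinery held gained and depleted RNAs. Of 142 RNAs of cytosolic ribosomal proteins, 7 were gained and 35 depleted, with medians of -0.51 and -0.41. RPS25A (89 nt) had 3247 FPKM in the input and 9993 and 10104 in the untranslated libraries, and RPS17B (24 nt) had 1317, 81.4 and 128. Of 94 RNAs of mitochondrial ribosomal proteins, 7 were gained and 14 depleted (14.9%), with medians of -0.25 and -0.11. MRP4 (88 nt), of the small mitochondrial subunit, had 1423 FPKM in the input and 5896 and 5914 in the untranslated libraries, and RSM19 (31 nt) of the same subunit had 10179, 2645 and 1089. Of 85 RNAs of ribosome assembly factors, 8 were gained and 19 depleted, with medians of -0.36 and -0.45.

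Of 30 RNAs of initiation factors, 2 were gained (6.67%) and 3 depleted, with medians of -0.57 and -0.26. CDC33 (80 nt), the cap-binding protein eIF4E, had 1524 FPKM in the input and 4044 and 4354 in the untranslated libraries, while its 80S libraries held 3878 to 4233. GCN3 (87 nt), a subunit of the exchange factor eIF2B, had 5516, 13812 and 12522. TIF2 (51 nt), the helicase eIF4A, had 5383, 1414 and 842. Among elongation and termination factors 1 of 24 RNAs was gained and 5 depleted. TEF4 (25 nt), a subunit of eEF1B, was the gained one, with 11346 FPKM in the input and 25731 and 33527 in the untranslated libraries, and TEF1 (31 nt), encoding eEF1A, had 11148, 2011 and 2519. These genes began at nearly the same input level and stood on opposite sides of it. Reads from the near-identical copies of eIF4A, eEF1A and ribosomal protein genes may have been shared between RNAs, as their counting is not given. Among aminoacyl-tRNA synthetases 2 of 23 were gained and 7 depleted, and YHR020W, a prolyl-tRNA synthetase, supplied both ends with its 73 nt leader (1123, 3474 and 5689 FPKM) and its 37 nt leader (3547, 609 and 365).

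Chaperones had large shares on both sides, with 6 gained and 18 depleted of 53 RNAs. After HCH1, the highest was HSP82 (56 nt), an Hsp90, with 3942 FPKM in the input and 16421 and 20772 in the untranslated libraries. CCT6 (22 nt) and ZUO1 (32 nt), a ribosome-associated J protein, were the lowest, ZUO1 with 13545, 4655 and 1988. Plasma membrane transporters, with 4 gained and 10 depleted of 37 RNAs, ranged from ENB1 (22 nt), an iron-enterobactin transporter, with 3206, 13862 and 13294 FPKM, to STL1 (28 nt), a glycerol transporter, with 5438, 625 and 372. STL1 kept 4588 to 6572 FPKM in the 80S libraries, near its input, and ENB1 1106 to 1334.

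Biosynthetic and degradative pathways lay on either side of the medians of all chosen RNAs. Amino acid biosynthesis had medians of -0.55 and -0.75, and the secretory pathway -0.44 and -0.36. Amino acid biosynthesis had 8 gained and 36 depleted of 114 RNAs, from TRP2 (93 nt), of anthranilate synthase, with 1164 FPKM in the input and 6998 and 5404 in the untranslated libraries, down to TRP1 (34 nt), of the same tryptophan pathway, with 2608, 397 and 124. Ergosterol synthesis had 1 gained of 36, ERG26 (97 nt), a decarboxylase of the pathway, with 1881, 8064 and 12452 FPKM, and 12 depleted, the lowest being ERG3 (57 nt), a desaturase, with 2918, 537 and 182. The proteasome had 2 gained and 15 depleted of 51, including RPT2 (33 nt) of the regulatory particle with 1937, 163 and 257. Autophagy had 2 gained, ATG17 and ATG22 (76 nt), and 11 depleted of 36. The secretory pathway had 2 gained, both leaders of the signal peptidase gene SEC11 (36 and 17 nt), and 8 depleted of 55 (14.5%). The spliceosome had 3 gained and 19 depleted of 75, among the gained SNU71 (42 nt), a U1 snRNP protein, with 19607, 60548 and 76534 FPKM, the highest untranslated level named here.

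The cell wall list had medians of -0.54 and -0.91, with 2 gained and 9 depleted of 37 RNAs. Its gained RNAs were the 107 nt and 95 nt leaders of SCW4, a cell wall glucanase. The oxidative stress list had medians of -0.69 and -0.93, with 1 gained and 10 depleted of 36 RNAs. The gained one was GRX1 (64 nt), a glutaredoxin, with 3066 FPKM in the input and 7971 and 10490 in the untranslated libraries. Among the depleted was GLR1 (18 nt), glutathione reductase, with 5632, 801 and 1014. Over the 22 lists, the median lay above that of all chosen RNAs in both libraries for 8, below it in both for 9, and on different sides for 5. Every list held depleted RNAs, and 19 held gained RNAs. Rescaling by median ratios, which raised the ratios by 0.39, turned the medians of 4 lists above 0, those of mitochondrial ribosomal proteins, elongation and termination factors, plasma membrane transporters and the secretory pathway.

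**Figure D5:**
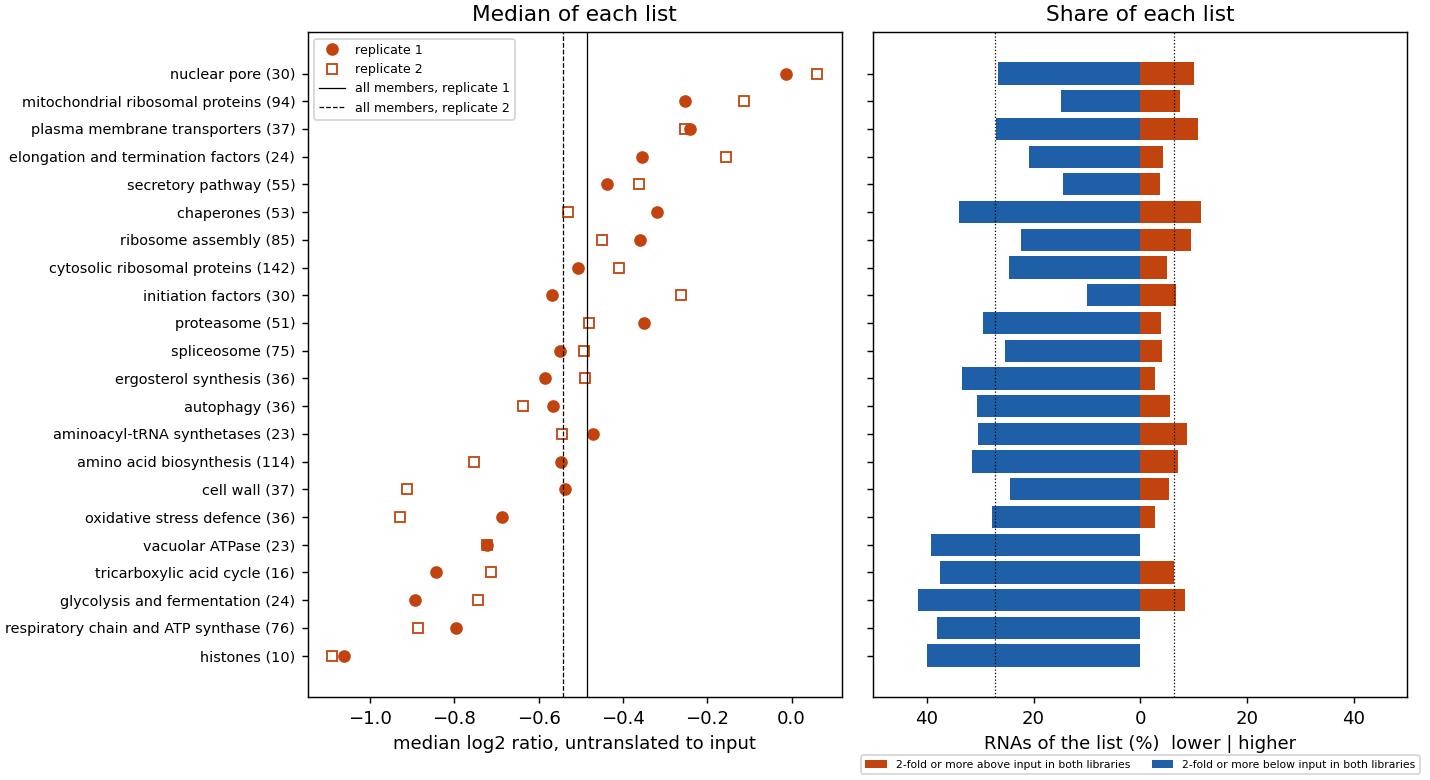
Left, median log2 ratio of untranslated to input in each library for 22 functional lists (number of RNAs in brackets), with lines at the medians of all chosen RNAs, -0.48 and -0.54. Right, percentage of each list depleted (leftward) or gained (rightward), with dotted lines at 27.2% and 6.32%; nuclear pore genes are highest and histones lowest.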

How the data were processed

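The authors deposited 1 table of FPKM values, 1 value for each RNA and library, per the file headers. The submitters' processing notes name cutadapt and STAR. No source used here gives the alignment settings, the genome build, the program behind FPKM or the handling of reads shared between RNAs. Depth is unknown, since whole reads could not be recovered: 57.5% of the 200 lowest input values were multiples of the lowest, 23.9, within a tolerance of 0.02, and the threshold was 41.8 times that value. FPKM values summed to 2.85e+07 in the input, and to less in the untranslated libraries, 2.54e+07 and 2.48e+07 in replicate order. The main ratios were not corrected for these sums, and the part of the sums in the ratios was not tested. FPKM is a share, so RNAs can rise because others fall.

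Ratios were log2((FPKM + 1)/(input FPKM + 1)) in each untranslated library. limma 3.58.1 (R 4.3.3, mean-variance trend) was fitted to all 6 libraries with 1 mean per group and Benjamini-Hochberg adjustment over 6962 RNAs. Residual degrees of freedom were 3 and prior degrees of freedom 5.15. The fit was run on simulated data with the same independent spread in every library. That run cannot show how the fit handles unequal spreads or the unreplicated input. The number in each RNA name was read as leader length, and bases were taken from R64 as 1 unbroken stretch upstream of the annotated ATG. Introns within leaders were not removed. As a check on this reading, 79.0% of leaders began with A, while A made up 40.5% of leader bases. The sequences of the pool itself were not available, so the bases taken from R64 were not compared with them. Folding used ViennaRNA 2.7.2 on the leader alone. Named RNAs were the 12 most gained and 12 most depleted by the weaker library, the 2 highest and 2 lowest of each list, the 5 largest pair differences (overall and within 30 nt), the 4 most different between libraries, the 3 on each side of the threshold, the 3 highest inputs, and the 4 on each side with 80S on the same side. The members, lists and rules were chosen with earlier results of these data known, and the counts of A in the first 12 bases and its breakdowns by input, length and pair were added after values were seen. Alternatives were other pseudocounts, thresholds and fold limits, rescaling, 1 RNA per gene, other fits, a replicate block and leaving out libraries.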

Additional observations from a re-analysis of the deposited data

How the results depend on the processing

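The 24 most gained and depleted RNAs kept their direction under all 190 recomputed values, with a smallest absolute log2 ratio of 2.37. They were chosen by the ratio of their weaker library, so leaving out a library could not reverse them. Direction under the other alternatives says little for ratios chosen to be this large. The other named RNAs were not recomputed. The sign changed in 8 medians of lists and leader groups. After rescaling, 6 rose above 0: elongation and termination factors (-0.34 to 0.05), mitochondrial ribosomal proteins (-0.27 to 0.12), plasma membrane transporters (-0.31 to 0.08), secretory pathway (-0.38 to 0.01), leaders with 0 to 2 A in the first 12 bases (-0.15 to 0.24) and leaders of 81 nt or more (-0.26 to 0.13). Elongation and termination factors also reached 0.24 at an input of at least 3000, and the nuclear pore went from 0.05 to -0.01 without untranslated replicate 2. The median log2 ratio over both libraries was -0.51, and became -0.46 at an input of at least 500, -0.61 at 2000, -0.67 at 3000, -0.13 after rescaling by median ratios and -0.58 with 1 RNA per gene. The 376 gained RNAs became 249 at an input of at least 2000, 176 at 3000, 725 after rescaling, 207 with 1 RNA per gene, 768 at 1.5-fold and 37 at 4-fold, and 449 to 596 with a single untranslated library. The 1620 depleted RNAs became 1067 after rescaling and 436 at 4-fold, and 1895 to 2165 with a single library. limma's 760 higher RNAs against the input became 1244 after rescaling and 453 without the 80S libraries, and leaving out 1 library gave 607 to 911 higher and 2009 to 2662 lower. For 80S against untranslated, leaving out 1 library gave 2072 to 2458 higher and 1723 to 2022 lower. The causes of these changes were not tested beyond the fewer RNAs or libraries that some alternatives hold.

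Replicate numbers are shared between the fractions but nothing says that they pair libraries. The differences between replicates 1 and 2 of the 80S and untranslated fractions had a Pearson's r of 0.367 across RNAs. With a replicate block, limma gave 740 higher and 2306 lower for untranslated against input, and 2432 higher and 1960 lower for 80S against untranslated. FPKM without read counts gives no counting interval, and with 1 input library the error of every ratio's denominator is unknown.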
